A study of Danio rerio with 16 samples.

Results

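The miR-34 family of the zebrafish array has 3 members, dre-miR-34, dre-miR-34b and dre-miR-34c, taken by their names in the scanner files and without star arms, out of 245 zebrafish miRNAs. They were followed over 4 groups of 4 arrays, 16 in all. The groups were embryos exposed to valproic acid (VPA, a drug against seizures and an inhibitor of histone deacetylases) at 96 hours post-fertilization (hpf), ethanol vehicle embryos at 96 hpf, VPA embryos at 48 hpf and vehicle embryos at 48 hpf. All embryos were of the wildtype TL strain, exposure to either agent began at 4 hpf, and the labels give neither a dose nor how many embryos made a sample. Nothing in the labels says that replicates came from separate clutches, so p-values measure only the spread between the arrayed samples.

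MicroRNAs are short RNAs that pair with messenger RNAs, mainly through a seed near their 5′ end, and repress them. In human and mouse cells the tumour suppressor p53 switches on the miR-34 genes after DNA damage, and the miRNAs then repress cell cycle and survival genes. miR-34a is also abundant in nervous tissue. miR-34b and miR-34c are processed from a shared transcript, and in mouse and frog they act, with the related miR-449, in multiciliated cells. None of the 4 miR-449 names searched was among the array's names (0 of 4).

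Each member has 2 probes that differ by 1 base in length, with 20 spots each. The stretches of miRNA that the longer probes pair with, read as the RNA complement of the deposited probe, are shown because miR-34b and miR-34c, close in sequence, gave different signals. All 3 stretches share 3 runs of 4 bases, AGUG, UUAG and GUUG, and none longer. Capitals mark AGUG, the one on the side of the seed.
miR-34: gcAGUGucuuagcugguugu
miR-34b: AGUGuuguuagcugauug
miR-34c: AGUGcaguuaguugauuac

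Aligned from AGUG without gaps, miR-34b and miR-34c were identical at 14 of 18 bases. miR-34 matched miR-34b at 8 of 18 and miR-34c at 8 of 18. Its longest shared run was 7 bases with miR-34b (UUAGCUG) and 5 with miR-34c. The UUAGCUG run does not line up in an alignment without gaps, so these counts do not rank the pairs by likeness. On the array design's build (danRer6, Zv8), the longer probe of miR-34 is listed at chromosome 23, 22084429 to 22084447. Those of miR-34b and miR-34c are listed at chromosome 5, 58899025 to 58899041 and 58898791 to 58898808, with 216 bases between them. Each listed span is 1 base shorter than its probe, so either end may be off by 1. All 3 members matched an entry of the RefSeq annotation of GRCz12tu. In that annotation mir34a, the current symbol for miR-34, lies within the spans of the protein-coding gene spsb1 and of a long non-coding RNA. On chromosome 5 mir34c and mir34b lie side by side between hoatz and btg4 and within no other gene.

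The arrays were unevenly bright. At 96 hpf the 75th percentile of the intensity lay between 1249 and 6179 on VPA arrays and between 1956 and 2406 on vehicle arrays. At 48 hpf it lay between 507 and 2356 on VPA arrays and between 897 and 1220 on vehicle arrays. Slide 1 carried the 48 hpf arrays and slide 2 those of 96 hpf, so VPA and vehicle were compared on a common slide, and slide cannot be told apart from age. Treatment cannot be told apart from the column on the slide, which was column 2 for VPA and column 1 for vehicle. The row on the slide was the replicate number in every group. Of 19 miRNAs taken as markers of neurons, muscle, liver, blood, skin, sensory cells and the early embryo, 17 were well above background on all 16 arrays and the others, miR-122 and miR-128, on 14 each. The number of arrays, 4 per group, limits the precision of every value.

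The 3 members stood at different distances from background. miR-34 was well above background on 16 of 16 arrays. miR-34c, by the majority of its spots, was so on 4 of 4 VPA and 3 of 4 vehicle arrays at 96 hpf, and on 1 of 4 VPA and 0 of 4 vehicle arrays at 48 hpf. miR-34b was so on 0 of 16. Of the 3 members, 2 were therefore tested, miR-34 and miR-34c, among 178 miRNAs. These differences are between probes and give no order of abundance between members.

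Levels are given as normalized log2 intensity, in which 0 is the array's 75th percentile and signals under 6.48% of that percentile were raised to that level, a floor of -3.95. For miR-34, replicates 1 to 4 had normalized log2 intensities of -0.25, -0.27, -0.30 and -0.0072 in VPA embryos at 96 hpf, against 0.19, 0.21, 0.25 and 0.14 in vehicle embryos at 96 hpf. At 48 hpf they had -0.95, -1.01, -0.93 and -1.07 in VPA embryos, against -0.59, -0.59, -0.64 and -0.69 in vehicle embryos. The arrays of the 4 groups did not overlap. The share of all miRNAs with all 4 groups apart was not counted. The order of the groups was vehicle at 96 hpf, VPA at 96 hpf, vehicle at 48 hpf and VPA at 48 hpf, from high to low. Between neighbouring groups the means differed by more than the SD of either group. At 96 hpf the nearest VPA and vehicle arrays, -0.0072 and 0.14, were less far apart than the lowest and highest VPA arrays. Across both probes of miR-34 the unscaled median intensity of the spots lay between 195 and 6265, and no spot was saturated or at the floor.

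**Figure D1:**
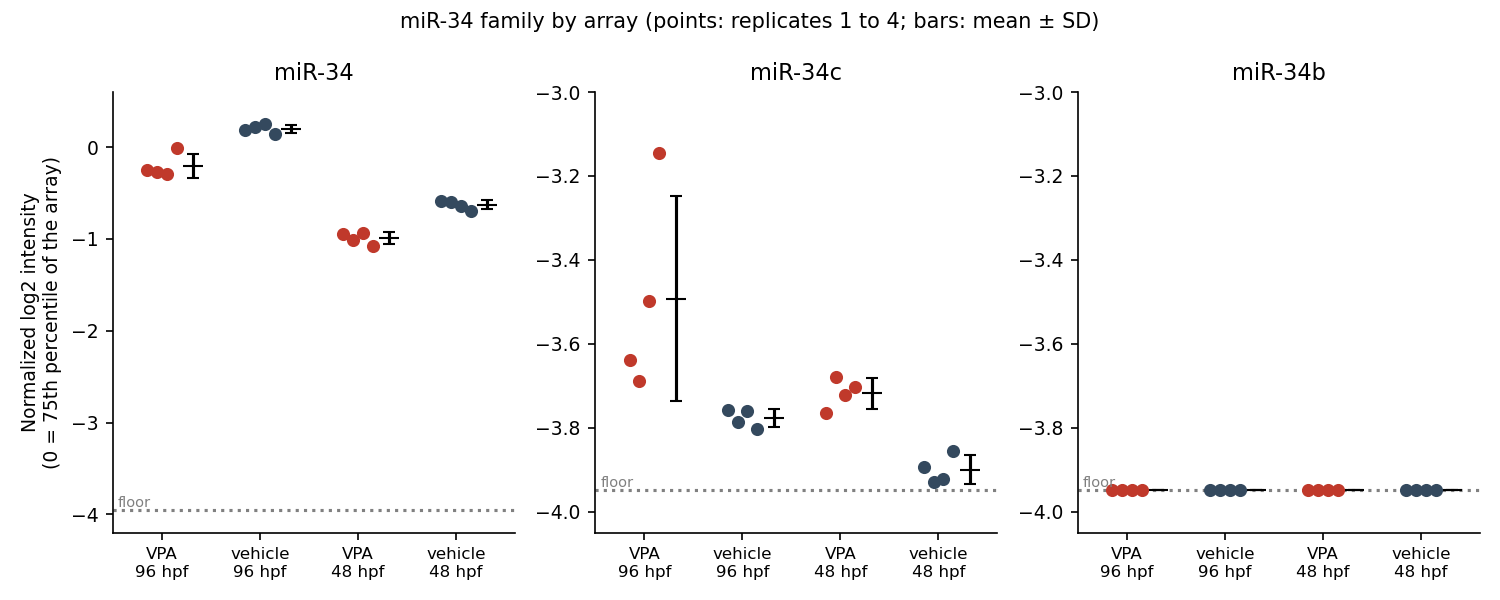
Normalized log2 intensity (y axis, 0 is the 75th percentile of the array) of miR-34, miR-34c and miR-34b in the 4 groups (x axis), with 1 point per array, the mean ± SD beside the points and the floor as a dotted line; the y axis of miR-34 is wider than those of miR-34c and miR-34b. The VPA arrays of miR-34 lie below the vehicle arrays at each age, those of miR-34c above them, and every array of miR-34b lies at the floor of -3.95.

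The first comparison, VPA against vehicle at 48 hpf, asked whether exposure moved the family. miR-34, a p53-raised miRNA of the nervous system in mammals, was 1.29-fold lower in VPA embryos (95% confidence interval 1.17 to 1.41). It averaged -0.99 ± 0.06 in VPA and -0.63 ± 0.05 in vehicle embryos (normalized log2 intensity, SD, n = 4 each). The log2 change was -0.36 ± 0.06 (SE, limma adjusted p = 0.00051), and all 4 VPA arrays lay below all 4 vehicle arrays. Of all 178 miRNAs, 29.2% passed at 48 hpf, 12.9% as lower. That split moves with the scaling, with 29 higher and 23 lower as reported and 12 higher and 32 lower with the percentile over probes detected on all arrays. The groups did not overlap for 41%, with VPA lower for 18.5%. The change of miR-34 ranked as number 158 from the highest. In whole embryos, fewer cells that hold a miRNA and less of it per cell cannot be told apart. Of the 19 marker miRNAs, 4 were lower at 48 hpf, the neuronal miR-124 (log2 change -0.47), the liver miR-122 (-0.54) and the sensory miR-96 (-0.73) and miR-182 (-0.70), and 1 was higher, the muscle miR-206 (0.42). The other 2 neuronal markers did not pass, with -0.04 for miR-9 (limma adjusted p = 0.893) and -0.15 for miR-128 (limma adjusted p = 0.368). Nor did the sensory miR-183 (-0.65, limma adjusted p = 0.0655). The same held for the muscle miR-1 (0.23), miR-133a (0.13) and miR-133b (0.13), with limma adjusted p = 0.412, 0.467 and 0.459. At 48 hpf miR-122 and miR-128 were each well above background on 2 of 4 VPA and 4 of 4 vehicle arrays. The part of these markers in the change of miR-34 was not tested.

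At 96 hpf miR-34 was again lower, 1.32-fold in VPA embryos (95% confidence interval 1.21 to 1.45). It averaged -0.21 ± 0.13 in VPA and 0.20 ± 0.04 in vehicle embryos (normalized log2 intensity, SD, n = 4 each). The log2 change was -0.40 ± 0.06 (SE, limma adjusted p = 0.000125), and the groups did not overlap. At this age 32.6% of the 178 passed, 18.5% as lower, which is 25 higher and 33 lower, against 35 higher and 25 lower with quantile normalization. The groups did not overlap for 31.5%, with VPA lower for 16.9%. VPA replicate 4, the brightest array of all with a 75th percentile of 6179, was the VPA array nearest to the vehicle arrays, and without it the change was -0.47 (limma adjusted p = 1.94e-06). At 96 hpf 1 of the 19 markers was lower, miR-122 (log2 change -0.37), and 1 higher, the red blood cell miR-451 (0.43). The other red blood cell marker, miR-144, had -0.47 (limma adjusted p = 0.152). The neuronal markers did not pass, with -0.16 for miR-124 (limma adjusted p = 0.116), -0.0037 for miR-9 (limma adjusted p = 0.984) and -0.28 for miR-128 (limma adjusted p = 0.0934). An exact two-sided permutation test of the 8 arrays of an age gave p = 0.0286 at 48 and at 96 hpf (n = 4 against 4), the smallest it can give. Neither this test nor the limma fit of group means takes account of the pairing of arrays by number at 96 hpf. Permuted within the 4 pairs, the exact p was 0.125, the smallest that 4 pairs allow, and VPA was lower in 4 of 4 pairs. Groups that do not overlap must give these exact p-values and 4 of 4 pairs, so they add no support.

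The shorter probe of miR-34 read the same direction. Its log2 change was -0.35 ± 0.07 at 48 hpf (SE, limma adjusted p = 0.00241) and -0.42 ± 0.07 at 96 hpf (limma adjusted p = 0.000397). Its spots and those of the longer probe are on the same arrays and measure the same RNA, so they are no further replicates. Among the spots of the longer probe on 1 array the SD of the log2 signal lay between 0.055 and 0.26.

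A difference between the effects on miR-34 at the 2 ages did not pass its test. The effect at 96 hpf minus that at 48 hpf was -0.04 ± 0.09 on the log2 scale (SE, 95% confidence interval -0.23 to 0.15, limma adjusted p = 0.837, 12.9% of miRNAs called).

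**Figure D2:**
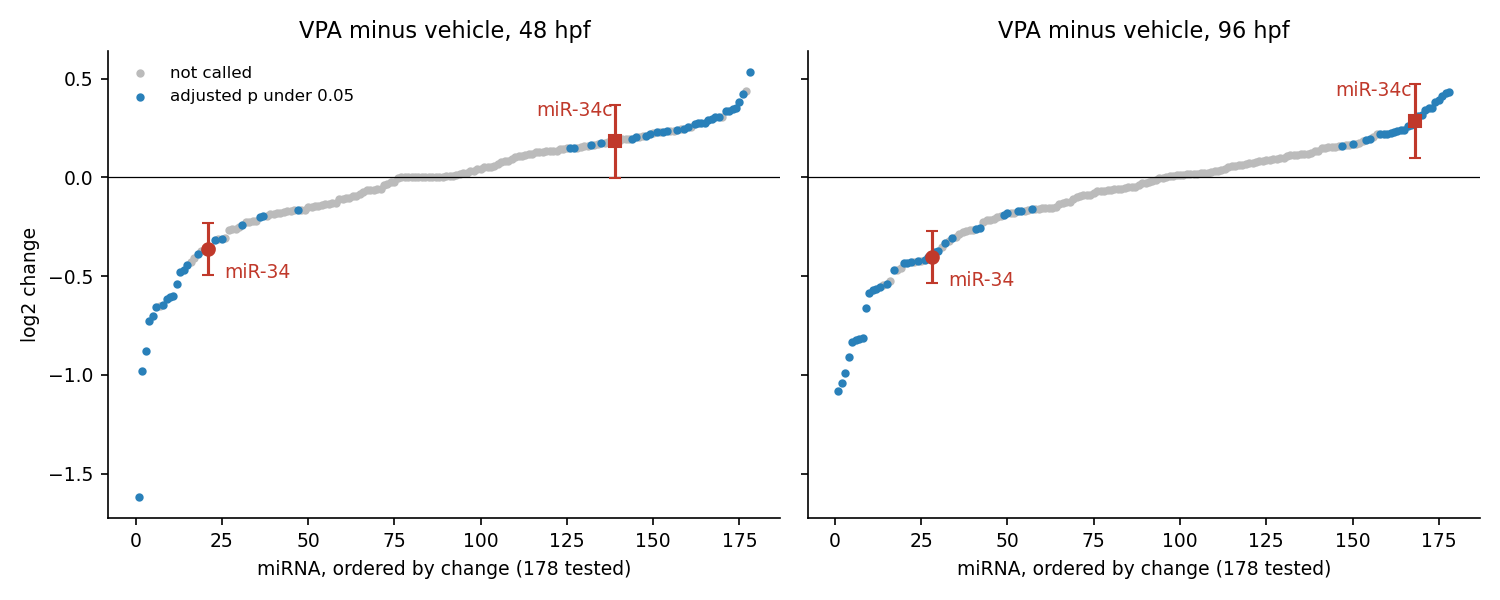
Log2 change, VPA minus vehicle (y axis), of the 178 tested miRNAs in rank order (x axis) at 48 hpf and 96 hpf, blue where the adjusted p was under 0.05, with miR-34 (circle) and miR-34c (square) in red and their 95% confidence intervals. miR-34 lies at -0.36 and -0.40, on the lower side of both panels, and miR-34c at 0.18 and 0.28.

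With age the level of miR-34 was higher, where age cannot be told apart from slide. In VPA embryos it was 1.72-fold higher at 96 than at 48 hpf (log2 change 0.79 ± 0.06, SE, n = 4 each, limma adjusted p = 1.41e-08). In vehicle embryos it was 1.77-fold higher (log2 change 0.83 ± 0.06, limma adjusted p = 6.5e-09). The change with age passed for 77.5% of the miRNAs in VPA and for 80.3% in vehicle embryos, 41.6% and 46.1% as higher. Without scaling (the deposited value table), 133 were higher and 4 lower in VPA embryos, and 74 higher and 4 lower in vehicle embryos. The groups did not overlap for 70.8% in VPA and 82.6% in vehicle embryos. The median change of all 178 miRNAs was 0.02 in VPA and 0.12 in vehicle embryos, and miR-34 ranked as number 33 in both. VPA embryos at 96 hpf lay above vehicle embryos at 48 hpf on every array. The share of all miRNAs for which those groups do not overlap was not counted.

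miR-34c, whose gene neighbours that of miR-34b, gave a dim signal. At 96 hpf replicates 1 to 4 had normalized log2 intensities of -3.64, -3.69, -3.50 and -3.14 in VPA embryos, against -3.76, -3.79, -3.76 and -3.80 in vehicle embryos. At 48 hpf they had -3.77, -3.68, -3.72 and -3.70 in VPA embryos, against -3.89, -3.93, -3.92 and -3.85 in vehicle embryos. At each age the VPA arrays lay above the vehicle arrays, which also held for 14.6% of all miRNAs at 96 hpf and for 22.5% at 48 hpf. Many spots were at the floor of -3.95, 7.79% in VPA and 34.2% in vehicle embryos at 96 hpf, and 50.6% in VPA and 75.7% in vehicle embryos at 48 hpf. At 48 hpf 23.4% of VPA spots were well above background, all of them on replicate 4, and 16.2% of vehicle spots. On VPA replicates 1 to 3 there, the lowest scaled signal well above background was 0.120 to 0.168, over the floor of 0.0648. Among the spots of 1 array the SD was 0.24 to 0.41 in VPA and 0.04 to 0.20 in vehicle embryos at 48 hpf. The part of that spread in the 48 hpf difference was not tested.

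At 96 hpf miR-34c was 1.22-fold higher in VPA embryos (95% confidence interval 1.07 to 1.38), with a log2 change of 0.28 ± 0.09 (SE, n = 4 each, limma adjusted p = 0.0214). It averaged -3.49 ± 0.25 in VPA and -3.78 ± 0.02 in vehicle embryos (normalized log2 intensity, SD). Of all miRNAs 14% passed as higher at this age, and miR-34c ranked as number 11. The size rests on VPA replicate 4, since without that array the change was 0.17 (limma adjusted p = 0.00985). A fit of only the 96 hpf arrays ended the call (adjusted p = 0.111), as did keeping outlier spots (log2 change 0.15) and using no floor (0.38, adjusted p = 0.055). So did leaving out VPA replicates 3 and 4, which were brighter than all vehicle arrays of that age (0.11, adjusted p = 0.063). The shorter probe, with 290 of its 299 spots at the floor, gave 0.0048, and the unscaled value table did not call it either (0.60). With the model-based background correction normexp the change turned to -0.28 (limma adjusted p = 0.698). Both the value table and normexp called 0 of all 178 miRNAs at 96 hpf.

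At 48 hpf miR-34c had a log2 difference of 0.18 ± 0.09 (SE, n = 4 each, 95% confidence interval -0.0026 to 0.37) that did not pass (limma adjusted p = 0.121). No fold is given, since 0 of 4 vehicle arrays were well above background and the lower bound came out under 1. The SE is shared by all 16 arrays, and in a fit of only the 48 hpf arrays the same difference passed (limma adjusted p = 0.00185). There 75 of all 178 miRNAs passed, 41 as higher, against 52 and 29 in the fit of all arrays. That fit too compares arrays of which only VPA replicate 4 was well above background. An exact two-sided permutation test of the 8 arrays gave p = 0.0286 at each age, the smallest it can give (n = 4 against 4). Permuted within the 4 pairs of 96 hpf, the exact p was 0.125, again the smallest. Groups that do not overlap must give these exact p-values, so they add no support. The difference of the effects, 96 minus 48 hpf, was 0.10 ± 0.12 (SE, 95% confidence interval -0.16 to 0.36, limma adjusted p = 0.624).

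Without a floor the spots of miR-34c could be read as a share of the array's 75th percentile. For the longer probe the median over spots was 7.91% to 11.6% in VPA and 6.81% to 7.18% in vehicle embryos at 96 hpf, and 5.78% to 6.92% in VPA and 5.32% to 5.62% in vehicle embryos at 48 hpf. These ranges do not overlap within an age. The share of all miRNAs for which that holds without a floor was not counted. With the floor, VPA lay above vehicle without overlap for 14.6% of all miRNAs at 96 hpf and 22.5% at 48 hpf. For the shorter probe it was 3.21% to 6.31% in VPA and 2.73% to 3.90% in vehicle embryos at 96 hpf, and 2.36% to 4.03% in VPA and 2.44% to 2.55% in vehicle embryos at 48 hpf. On the log2 scale the unfloored VPA minus vehicle difference was 0.36 at 96 hpf and 0.22 at 48 hpf for the longer probe, and 0.42 at 96 hpf and 0.29 at 48 hpf for the shorter one. The shorter probe's ranges overlap at both ages, and its difference did not pass an exact two-sided permutation test (p = 0.143 at each age, n = 4 against 4). At both probes VPA replicate 4 had the highest share of its group, at each age, and it was also the brightest array of its group. The part of brightness in the difference was not tested.

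**Figure D3:**
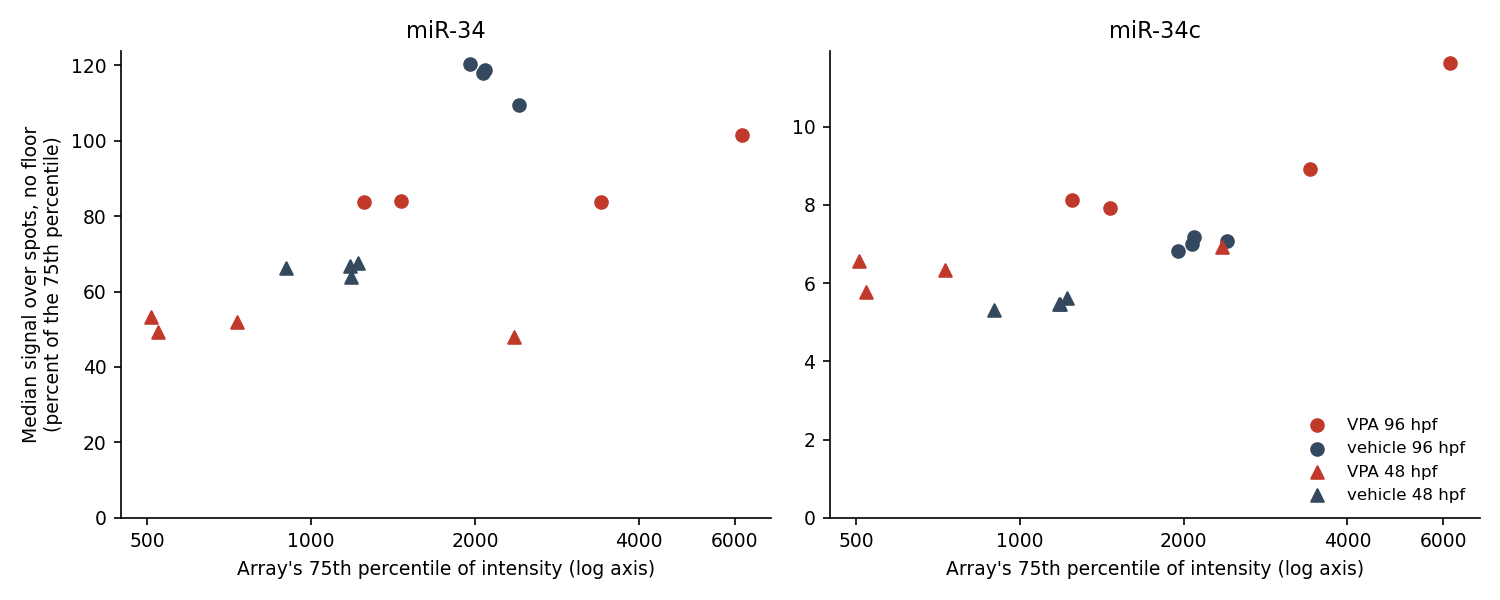
Median signal over the spots of the longer probe, without a floor, as a percent of the array's 75th percentile (y axis) against that percentile in intensity units (x axis, log), for miR-34 and miR-34c, with 1 point per array, red for VPA, dark for vehicle, circles for 96 hpf and triangles for 48 hpf. For miR-34c the brightest array, VPA replicate 4 at 96 hpf with a 75th percentile of 6179, has the highest share, 11.6%.

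With age, the log2 difference of miR-34c in VPA embryos, 96 minus 48 hpf, was 0.23 ± 0.09 (SE, n = 4 each, limma adjusted p = 0.0268). No fold is given, since 4 of 4 arrays were well above background at 96 hpf but 1 of 4 at 48 hpf, where 50.6% of spots were at the floor. The groups overlapped. That direction turned with quantile normalization (-0.053) and with normexp (-0.97), and the call ended with outlier spots kept (0.17), with the mean of both probes (0.11), without the brighter VPA arrays (0.059) and without VPA replicate 1 of 48 hpf (adjusted p = 0.0629). In vehicle embryos the log2 difference was 0.12 ± 0.09 and did not pass (limma adjusted p = 0.209), and no fold is given because 0 of 4 arrays at 48 hpf were well above background. miR-34c passed the detection filter only through the 96 hpf groups. Neither p-value with age is therefore independent support for a higher level at 96 hpf. Age cannot be told apart from slide here either.

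miR-34b, the other member of the chromosome 5 pair, gave no signal over background. Over its 2 probes and 16 arrays, 0 of 594 spots used were well above background. The unscaled median intensity over the spots of a probe ran from -15.0 to 9.36, and 24 of these 32 medians were below 0. They stood between -1.60% and 0.79% of the array's 75th percentile. Every array therefore lies at the floor of -3.95, and no fold or test is given for any comparison.

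The processing moved the 2 members to different extents. The direction of miR-34 was lower in VPA embryos under every alternative run at 48 and 96 hpf, but 2 processing alternatives ended its call. With normexp its change was -0.11 at 48 hpf and -0.37 at 96 hpf, and in the unscaled value table -0.80 and -0.17, where the median change of all miRNAs was itself -0.31 and 0.20. miR-34c kept its sign at 48 hpf and lost it with normexp at 96 hpf.

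**Figure D4:**
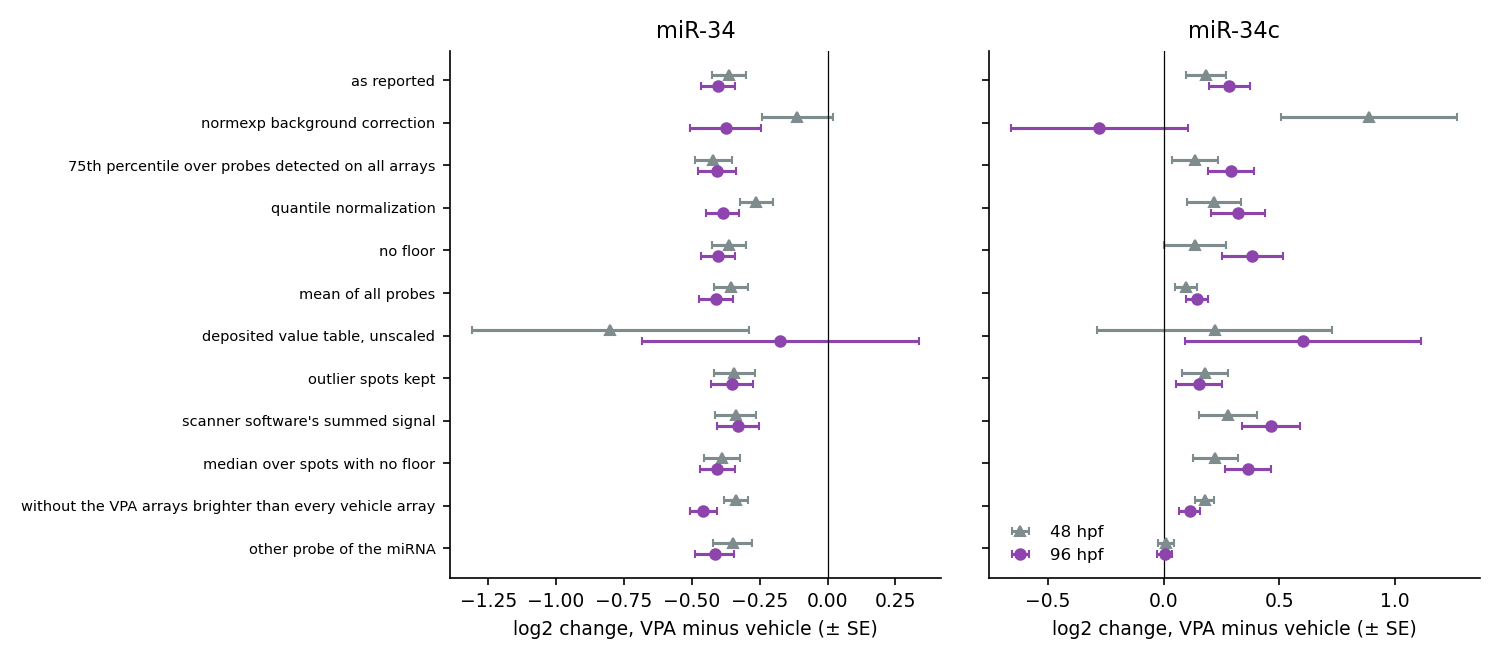
Log2 change, VPA minus vehicle, with its SE (x axis), of miR-34 and miR-34c under the reported processing and 11 alternatives (y axis), with triangles for 48 hpf and circles for 96 hpf. miR-34 lies below 0 throughout, from -0.80 to -0.11 at 48 hpf, while miR-34c spreads from -0.28 to 0.60 at 96 hpf.

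The miRNAs whose pattern was most like that of miR-34 were named by Pearson's r over the 16 arrays, a description over points that share ages and slides. They were miR-129* (r = 0.980), miR-724 (r = 0.974) and miR-429b (r = 0.965). After the mean of each age was subtracted they were miR-129* (r = 0.897), miR-429b (r = 0.889) and miR-139 (r = 0.883). miR-129*, from the opposite arm of a brain miRNA, had log2 changes of -0.61 at 48 hpf and -0.58 at 96 hpf. At 48 hpf miR-724 was well above background on 1 of 4 VPA and 4 of 4 vehicle arrays.

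For miR-34c the closest were miR-30e* (r = 0.862), miR-204 (r = 0.748) and miR-100 (r = 0.733). After the mean of each age was subtracted they were miR-457a (r = 0.937), miR-15b (r = 0.903) and miR-216b (r = 0.886). These r use floored values, with 50.6% of VPA and 75.7% of vehicle spots of miR-34c at the floor at 48 hpf. The part of the floor and of array brightness in them was not tested. Between miR-34 and miR-34c r was 0.212 over the 16 arrays, -0.53 after the mean of each age was subtracted and 0.677 after the mean of each group was subtracted. All points of such an r share their array's scaling. On VPA replicate 4 of 96 hpf, the brightest array, both members were highest in their group. There miR-34 had -0.0072 beside a group mean of -0.21, and miR-34c had -3.14 beside -3.49. The part of that array in the r of 0.677 was not tested.

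Other miRNAs tied to p53 passed in both directions. Of 16 miRNAs that p53 raises or helps to process in mammals, 15 were tested. At 96 hpf 4 were higher and 5 lower in VPA embryos, and at 48 hpf 4 were higher and 2 lower. Of all 178, 14% were called higher and 18.5% lower at 96 hpf, and 16.3% higher and 12.9% lower at 48 hpf. The list's median log2 change was -0.06 at 96 hpf and 0.03 at 48 hpf, beside -0.03 and 0.0037 over all 178. The counts and median at 48 hpf include miR-145, miR-194a and miR-194b. These were well above background on 0 of 4 VPA and 0 of 4 vehicle arrays there. miR-194b, among the 5 lower at 96 hpf, was so on 2 of 4 VPA and 3 of 4 vehicle arrays. It passed the filter through that vehicle group alone.

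At 96 hpf the largest changes of the list were those of the gut and liver pair miR-192 (log2 change -0.84 ± 0.12, SE, limma adjusted p = 5.62e-05) and miR-194a (-0.83 ± 0.08, limma adjusted p = 1.5e-06), and of miR-145 of smooth muscle (-0.43 ± 0.08, limma adjusted p = 0.000924). For miR-194a and miR-145 0 of 8 arrays at 48 hpf were well above background. At 48 hpf they were those of miR-192 (-0.65 ± 0.12, limma adjusted p = 0.00082), miR-16a (0.53 ± 0.08, limma adjusted p = 0.000273) and miR-15a (0.23 ± 0.07, limma adjusted p = 0.028). The 4 that were higher at 48 hpf were miR-15a, miR-16a, miR-16b and miR-16c of the miR-15/16 family, which shares a seed and represses cell cycle genes. The 4 that were higher at 96 hpf, miR-15b, miR-16a, miR-16b and miR-16c, were of that family too. Its listed member that did not pass was miR-15b at 48 hpf (log2 change 0.08, limma adjusted p = 0.261). At 96 hpf it was miR-15a (0.02, limma adjusted p = 0.891).

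Of 5 miRNAs that are directed against p53 messenger RNA, 2 were higher at 48 hpf, miR-30a (log2 change 0.30) and miR-30d (0.27), and 0 were lower, where 16.3% of all 178 were higher and 12.9% lower. At 96 hpf 1 was lower, miR-30e (log2 change -0.26, limma adjusted p = 0.0127), and 0 were higher, where 18.5% of all 178 were lower and 14% higher. miR-125b, which represses p53 in zebrafish, had -0.08 at 48 hpf (limma adjusted p = 0.487) and -0.03 at 96 hpf (limma adjusted p = 0.854).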

How the data were processed

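Total RNA of 16 samples was hybridized to 1-colour (Cy3) Agilent miRNA arrays. Each spot's deposited intensity was background-subtracted and detrended within its array and not normalized between arrays, using Feature Extraction 9.5.3.1 per the file headers (version 9.5 per the submitters' processing notes). The deposited value table holds that intensity rounded, with 100% of values within 1%. Spot flags were used as deposited, per the file headers.

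Of each array's spots, 715 controls and 3.32% to 8.07% of the 10360 others, marked as outliers, were dropped. Signals were scaled to the array's 75th percentile (56.0% of probes were detected on an average array), raised to a floor of 0.0648, the lowest detected scaled signal per array taken as a median, and averaged as log2 over spots. A miRNA is represented by its brightest probe. Testing required detection, by the majority of spots, on 3 or more of the 4 arrays in any group, leaving 178.

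Group means were fitted with limma 3.58.1 (lmFit, eBayes) under R 4.3.3, two-sided, Benjamini-Hochberg adjusted over these 178, threshold 0.05. The fit was tested on simulated data with independent errors, to which no floor and no differences in array brightness were applied. That test therefore does not cover these features of the arrays. Figures used matplotlib 3.10.9. Deviations of VPA and vehicle arrays with the same number correlated at 96 hpf (r = 0.286, 0.285, 0.273 and 0.244). They did not do so throughout at 48 hpf (r = 0.0977, -0.184, 0.324 and -0.151). Arrays of the same number were therefore read as pairs at 96 hpf only, in the exact test within pairs. The main limma fit took no account of pairs at either age. A refit with the replicate number as a block did so at both ages. The number is also the row on the slide, so a pairing of samples cannot be told apart from a shared row. Named miRNAs are the members, the 3 most alike by each r and, of each p53 list, the 3 largest VPA effects at each age; others, markers included, were named after their values were seen. Members and lists were chosen with earlier results of these data known. Mature miRNA sequences were not used here.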

Additional observations from a re-analysis of the deposited data

Results flagged for a closer look

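At 96 hpf the normalized log2 intensity of miR-34 on VPA replicate 4 was -0.0072, apart from the other VPA arrays at -0.30 to -0.25; without it the change of miR-34 was -0.47. The 75th percentile of VPA replicate 4 at 48 hpf was 2356, apart from 507 to 730 on the other VPA arrays, and that of vehicle replicate 3 at 48 hpf was 897, apart from 1179 to 1220 on the other vehicle arrays. Of 12 groups of 4 values examined, 3 held such a value by Dixon's test at the 95% level, where chance marks about 1 in 20.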

How the results depend on the processing

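Each comparison was refitted under up to 18 alternatives, and 16 times with 1 array left out. For miR-34, VPA minus vehicle stayed negative in all of them, and the call was kept in all but the test within pairs (below), normexp (-0.11 at 48 hpf, -0.37 at 96 hpf) and the unscaled value table (-0.80, -0.17). Its change with age, which is also a change of slide, kept direction and call throughout. The difference between its effects turned sign, never called, with the percentile over probes detected on all arrays (0.014), the value table (0.63) and the scanner software's summed signal (0.0093). With the replicate block no call of a member changed: miR-34 had -0.36 (limma adjusted p = 0.00445) at 48 hpf and -0.40 (0.0021) at 96 hpf, and miR-34c 0.18 (0.147) and 0.28 (0.0376). The contrasts between ages cannot be had with that block. Permuted within the 4 pairs of 96 hpf, miR-34 (-0.40) and miR-34c (0.28) had an exact p of 0.125, the smallest possible there, which says nothing about stability.

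For miR-34c at 48 hpf, a fit of that age alone (0.18) and leaving out the brighter VPA arrays, 48 hpf replicate 4 and 96 hpf replicates 3 and 4 (0.18, an alternative chosen after seeing the data), passed. These settings called 75 and 81 of all 178 miRNAs at 48 hpf, against 52 as reported. The exact permutation test (0.18) gave p = 0.0286, which unlike the limma p-values is not adjusted. It gives that p wherever the groups do not overlap, as for 41% of all miRNAs at 48 hpf. At 96 hpf normexp turned the sign (-0.28), and the call was not kept with no floor (0.38), the value table (0.60), outlier spots kept (0.15), that age alone (0.28), the brighter VPA arrays left out (0.11) and the other probe (0.0048). The difference of its effects turned sign with normexp (-1.17), outlier spots kept (-0.029), the brighter arrays left out (-0.064) and the other probe (-0.0060). Its change with age in VPA embryos turned sign with normexp (-0.97), quantile normalization (-0.053) and the other probe (-0.0060), and did not pass with the mean of probes (0.11), outlier spots kept (0.17) and the brighter arrays left out (0.059). In vehicle embryos it turned sign with quantile normalization (-0.16) and passed with no floor (0.35), the summed signal (0.49), medians over spots with no floor (0.36) and the brighter arrays left out (0.12). Detection on all 16 arrays leaves miR-34c out. It was tested only through its detection at 96 hpf, so its calls with age are no independent support. The causes were not tested.

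Leaving out 1 array gave, for miR-34, -0.38 to -0.34 at 48 hpf, -0.47 to -0.37 at 96 hpf, -0.11 to -0.011 for the difference, and 0.72 to 0.82 (VPA) and 0.81 to 0.84 (vehicle) with age. For miR-34c it gave 0.17 to 0.20, 0.17 to 0.35, -0.014 to 0.17, 0.11 to 0.29 and 0.11 to 0.14 for the same comparisons. Without VPA 96 hpf replicate 4 the 48 hpf difference (0.18) and the vehicle age change (0.12) of miR-34c passed, and the difference of its effects was -0.014.

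Of all 178 miRNAs, 52 were called at 48 hpf, 58 at 96 hpf, 23 for the difference and 138 (VPA) and 143 (vehicle) with age. Normexp gave 5, 0 (20 at an unadjusted p under 0.05, limma) and 2, with 86 for vehicle age. The value table gave 0 (9 unadjusted), 0 (0) and 0 (1), with 78 for vehicle age. No floor gave 34 at 96 hpf and 14 for the difference. Detection on all 16 arrays left 129 miRNAs to test, and of these 31 and 7 were called. A fit of 96 hpf alone gave 37, and the summed signal 15 for the difference. Leaving out the brighter VPA arrays gave 81 at 48 hpf and 52 for the difference. With 1 array left out the counts were 38 to 84, 44 to 65, 20 to 44, 135 to 145 and 135 to 151, with 84 and 44 without VPA 96 hpf replicate 4. The median change of all miRNAs shifted by over 0.1 with the value table (-0.31 at 48 hpf, 0.20 at 96 hpf), and at this signal over background miR-34b could not be read.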
